A study of Mus musculus with 96 samples.

Results

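Brain endothelial and barrier genes were followed in mouse hippocampus and prefrontal cortex through 10 genes chosen by name: the junction genes Cldn5, Ocln, Tjp1 and Cdh5, the surface and receptor genes Pecam1, Flt1 and Ly6c1, and the transporter genes Slco1a4, Abcb1a and Mfsd2a. All 10 were found among the 22709 genes of the table, and all 10 passed the filter on low values in both tissues. Messenger RNA was sequenced from 96 libraries in 16 groups, 48 libraries per tissue. In each tissue the groups were offspring after maternal immune activation (MIA) given the inhibitor of the microglial receptor CSF1R that the labels call Plexxikon (PLX), offspring after a maternal saline injection given PLX, offspring after MIA given the control, and offspring after saline given the control, each in females and males. A group held 6 libraries, except 7 for MIA control females and 5 for MIA control males. The design text names the compound PLX5622. The sources used here give no strain, age, agent of immune activation, inhibitor dose or litter.

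The blood-brain barrier is formed by the endothelial cells that line brain vessels. Tight junctions seal the gaps between these cells, specific carriers move nutrients and lipids inwards, and efflux pumps return foreign compounds to the blood. Pericytes and astrocyte endfeet around the vessel help to maintain this state, and microglia lie close to the vessel wall.

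Promoter letters are shown for Cldn5 with Flt1 and for Mfsd2a with Ly6c1, pairs whose levels went together between libraries, and for Ocln and Abcb1a, which differed between the tissues. RefSeq windows of GRCm38.p6, 300 bases around a transcript start, were at hand for 8 of the 10 members, in 10 windows, with none for Pecam1 and Cdh5. Capitals mark any match, on either strand, to letters named for endothelial regulators: AGGAAG (the ETS core), GTAAACA (FOX), ACAAAG (SOX), CTTTGA (LEF/TCF) and CCACCC (KLF).
Cldn5, chr16:18776597-18776896, plus strand: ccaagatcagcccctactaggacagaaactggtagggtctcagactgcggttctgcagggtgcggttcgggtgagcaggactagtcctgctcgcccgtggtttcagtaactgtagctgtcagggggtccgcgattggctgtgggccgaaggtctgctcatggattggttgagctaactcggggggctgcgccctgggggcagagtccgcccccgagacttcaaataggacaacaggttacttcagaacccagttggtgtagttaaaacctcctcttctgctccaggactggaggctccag
Flt1, chr5:147725962-147726261, minus strand: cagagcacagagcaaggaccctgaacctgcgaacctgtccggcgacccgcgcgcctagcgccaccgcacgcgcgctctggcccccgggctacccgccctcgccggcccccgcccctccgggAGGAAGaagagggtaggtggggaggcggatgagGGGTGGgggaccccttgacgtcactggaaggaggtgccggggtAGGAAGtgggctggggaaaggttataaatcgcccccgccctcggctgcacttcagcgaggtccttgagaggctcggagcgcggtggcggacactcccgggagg
Mfsd2a, chr4:122961139-122961438, minus strand: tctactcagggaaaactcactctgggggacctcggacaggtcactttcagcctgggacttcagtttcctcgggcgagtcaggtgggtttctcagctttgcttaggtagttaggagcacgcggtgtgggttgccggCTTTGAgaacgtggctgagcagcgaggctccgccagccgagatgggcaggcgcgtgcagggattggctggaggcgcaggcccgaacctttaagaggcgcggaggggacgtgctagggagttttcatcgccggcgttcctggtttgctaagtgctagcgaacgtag
Ly6c1, chr15:75048614-75048913, minus strand: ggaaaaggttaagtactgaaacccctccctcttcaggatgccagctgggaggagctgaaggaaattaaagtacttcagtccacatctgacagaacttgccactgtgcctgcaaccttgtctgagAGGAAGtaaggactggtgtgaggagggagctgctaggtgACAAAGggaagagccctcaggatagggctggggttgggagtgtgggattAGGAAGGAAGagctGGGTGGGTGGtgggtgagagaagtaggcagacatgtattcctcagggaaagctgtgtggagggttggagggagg
Ocln, chr13:100552669-100552968, minus strand: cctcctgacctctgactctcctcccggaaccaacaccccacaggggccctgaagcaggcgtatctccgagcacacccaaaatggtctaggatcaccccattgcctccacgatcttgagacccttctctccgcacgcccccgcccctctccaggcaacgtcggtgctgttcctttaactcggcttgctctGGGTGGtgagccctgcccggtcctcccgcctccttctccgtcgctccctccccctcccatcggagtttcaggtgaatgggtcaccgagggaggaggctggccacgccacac
Abcb1a, chr5:8566841-8567140, plus strand: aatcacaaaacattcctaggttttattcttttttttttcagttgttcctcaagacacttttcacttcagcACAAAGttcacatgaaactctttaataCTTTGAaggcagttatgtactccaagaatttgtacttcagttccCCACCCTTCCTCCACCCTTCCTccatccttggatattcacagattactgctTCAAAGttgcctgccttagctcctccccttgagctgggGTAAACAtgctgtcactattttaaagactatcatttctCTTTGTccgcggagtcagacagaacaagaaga

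The Abcb1a window held 9 matches and at least 1 of every motif, and its KLF and ETS matches overlap. The window printed for Ly6c1, the second of its pair, held 6 matches, and its other window held 0. The Flt1 window held 3, the Mfsd2a and Ocln windows held 1 each, and the Cldn5 window held 0. Over the first window of the 8 members the ETS core occurred in 3, the FOX letters in 1, the SOX letters in 1, the LEF/TCF letters in 2 and the KLF letters in 4. Of all 32851 windows of this length, 35.4% held the ETS core, 3.65% the FOX letters, 18.7% the SOX letters, 16% the LEF/TCF letters and 31.5% the KLF letters. A match is a run of letters only and was not tied to any value reported here.

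The level of each member is given as a normalised read count, that is, reads divided by a factor for the library. Every member was above 0 in every library. In single libraries the lowest value was 165 for Ocln and the highest 3976 for Tjp1, both in prefrontal cortex. Exon length here joins all annotated exons of a gene, in an annotation of an older genome build than that of the alignment. The order of genes per kilobase therefore depends on their annotated exons. Per kilobase of exon, Tjp1 stood highest, at 390 ± 63.2 in hippocampus and 389 ± 69.3 in prefrontal cortex (normalised reads per kilobase, mean ± SD, n = 48 libraries each). This gene encodes the scaffold ZO-1, which many other cell types also make. Mfsd2a, the lysolipid carrier that also holds back transcytosis, stood at 291 ± 76.7 in hippocampus and 243 ± 60.9 in prefrontal cortex on the same scale. Ly6c1, a surface protein of mouse vessels, stood at 278 ± 47.5 in hippocampus and 273 ± 52.9 in prefrontal cortex, and Cldn5, the main claudin of the barrier, at 270 ± 78.9 in hippocampus and 278 ± 76.9 in prefrontal cortex. Mfsd2a, Ly6c1 and Cldn5 lay within 1 SD of each other in each tissue, so these values do not order them.

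Slco1a4, an organic anion carrier, followed at 187 ± 25.1 per kilobase in hippocampus and 191 ± 33.5 in prefrontal cortex. Abcb1a, which encodes the efflux pump P-glycoprotein, stood at 135 ± 19.3 in hippocampus and 155 ± 20.7 in prefrontal cortex. The VEGF receptor gene Flt1 had 105 ± 16.9 in hippocampus and 112 ± 16.9 in prefrontal cortex. Ocln, the tight junction protein occludin, came next in hippocampus at 93.2 ± 13.6 but last in prefrontal cortex at 48.9 ± 4.67. Pecam1, the adhesion molecule CD31, had 66.8 ± 9.68 in hippocampus and 66.4 ± 9.72 in prefrontal cortex. Cdh5, which encodes VE-cadherin of adherens junctions, had 63.1 ± 10.6 in hippocampus and 72.6 ± 10.6 in prefrontal cortex, within 1 SD of Pecam1 in each tissue. In bulk tissue, fewer endothelial cells and less RNA per cell cannot be told apart.

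Cldn5 and Mfsd2a varied most between libraries. The coefficient of variation of Cldn5 was 29.2% in hippocampus and 27.6% in prefrontal cortex, and its highest library held 3.36 times its lowest in hippocampus and 3.28 times in prefrontal cortex. For Mfsd2a the coefficient of variation was 26.3% in hippocampus and 25.1% in prefrontal cortex. Ocln in prefrontal cortex varied least, at 9.57%. The other values ran from 13.3% for Abcb1a in prefrontal cortex to 19.4% for Ly6c1 in the same tissue.

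A set of libraries stood apart from the rest by a higher share of reads on 89 genes of ribosomal proteins and 88 nuclear oxidative phosphorylation genes. There were 14 such libraries in hippocampus and 16 in prefrontal cortex. Between them 14 labels stood apart in both tissues, 2 of the 24 PLX labels and 12 of the 24 control labels. Because PLX and control hold such unequal parts of the set, the PLX values averaged over sex and prenatal treatment are given for all libraries and beside a term for the set or its omission, while comparisons within a sex and prenatal treatment are given for all libraries. Recovered reads per library ran from 22234569 to 26689351 in hippocampus and from 22752437 to 25928320 in prefrontal cortex.

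Several members differed between the set and the other libraries. In hippocampus Tjp1 averaged 2362 in the 14 libraries that stand apart and 3324 in the other 34, a ratio of 0.711, and these libraries did not overlap. The share of all genes that separate the set in this way was not counted, so this is not read as particular to Tjp1. In prefrontal cortex Tjp1 averaged 2346 in the 16 libraries that stand apart and 3386 in the other 32, a ratio of 0.693, with overlap. Flt1 and Abcb1a were lower in the set as well, at ratios of 0.854 and 0.845 in hippocampus and 0.859 and 0.856 in prefrontal cortex. Cldn5 was higher in it, at ratios of 1.29 in hippocampus and 1.4 in prefrontal cortex, and so was Ly6c1, at 1.25 in hippocampus and 1.24 in prefrontal cortex. Ocln and Mfsd2a were near level, with ratios of 0.988 to 1.05 over both tissues. The summed level of 8 astrocyte markers was lower in the set too. Slc1a2 made up most of this sum, with a median of 109263 in hippocampus and 98995 in prefrontal cortex, so the sum need not speak for each marker. In the hippocampal libraries that stand apart the sum ran from 120849 to 158615 (median 138051). In the others it ran from 152392 to 192813 (median 177813), overlapping narrowly. In prefrontal cortex that sum had a median of 115697 in the libraries that stand apart and 155901 in the others. Sums of other lists differed in hippocampus as well. That of 16 VEGF and angiopoietin genes was lower, at 8653 to 9591 in the set and 9618 to 11050 in the others. Higher medians in the set were those of 17 arterial and venous genes (15533 against 13090) and 5 oligodendrocyte markers (90013 against 80914). These values describe the libraries, and the part of any of these lists in the level of Tjp1 was not tested.

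**Figure D1:**
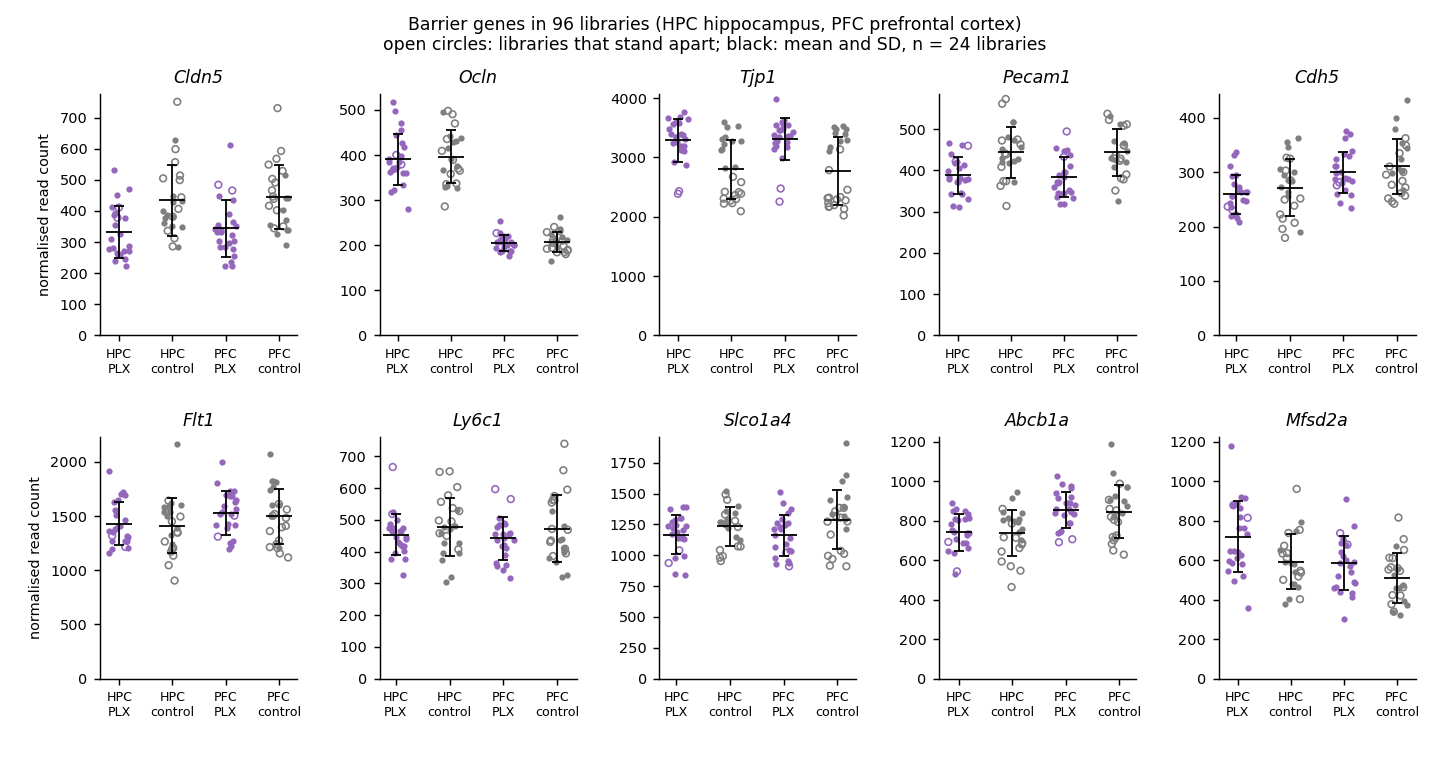
Normalised read count (y axis, linear, from 0) of each of the 10 members in PLX and control libraries of hippocampus (HPC) and prefrontal cortex (PFC). Each point is a library, open circles are libraries that stand apart, and black bars give the mean and SD of 24 libraries. Control columns hold most of the open circles, Tjp1 splits into a lower open and a higher filled cloud, and Ocln is higher without overlap in hippocampus.

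Whether PLX changed barrier genes was asked first over the 24 PLX and 24 control libraries of a tissue, averaged over sex and prenatal treatment. With all libraries and no term, Cldn5 and Pecam1 were lower and Tjp1 higher under PLX in both tissues, and Mfsd2a was higher in hippocampus. No member passed the threshold in either tissue once a term for the set that stands apart was in the fit. Without those libraries Slco1a4 alone passed, lower under PLX in prefrontal cortex. The test was limma on log2(normalised read count + 1) with Benjamini-Hochberg adjustment over all genes tested and a threshold of 0.05, and fold changes on this scale slightly understate those of low genes.

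Among junction genes, Cldn5 in hippocampus ran from 224 to 532 in PLX libraries with a median of 298, and from 283 to 751 in control libraries with a median of 403. In prefrontal cortex Cldn5 ran from 223 to 611 (median 331) in PLX libraries and from 291 to 731 (median 440) in control libraries. The PLX medians lay lower, and the ranges overlapped. The log2 fold change of Cldn5 was -0.39 ± 0.10 (SE) in hippocampus (limma, adjusted p = 0.00206) and -0.37 ± 0.09 in prefrontal cortex (adjusted p = 0.00295). With the term it was -0.29 ± 0.10 in hippocampus (adjusted p = 0.167) and -0.15 ± 0.09 in prefrontal cortex (adjusted p = 0.588). When the set was left out, Cldn5 differed by -0.32 ± 0.12 in hippocampus (adjusted p = 0.304) and by -0.19 ± 0.12 in prefrontal cortex (adjusted p = 0.501). Over 12 other settings its adjusted p ran from 2.93e-05 to 0.304 in hippocampus and from 7.2e-05 to 0.588 in prefrontal cortex, and every estimate was below 0. The 12 settings, here and below, include fits for the labels that stand apart in both tissues, which in hippocampus repeat those for the libraries.

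Tjp1 ran from 2386 to 3768 in hippocampal PLX libraries with a median of 3346, against 2092 to 3589 with a median of 2746 in control libraries. In prefrontal cortex Tjp1 ran from 2253 to 3976 (median 3361) in PLX libraries and from 2020 to 3522 (median 2619) in control libraries. The lowest PLX values of Tjp1 belonged, in each tissue, to the 2 PLX libraries that stand apart, at 2386 and 2429 in hippocampus. Outside the set Tjp1 averaged 3365 ± 243 in 22 PLX libraries and 3248 ± 246 in 12 control libraries of hippocampus (SD), and 3396 ± 209 in 22 PLX libraries and 3365 ± 144 in 10 control libraries of prefrontal cortex. Its log2 fold change over all libraries was 0.25 ± 0.06 in hippocampus (limma, adjusted p = 0.00221) and 0.28 ± 0.07 in prefrontal cortex (adjusted p = 0.0024). With the term the Tjp1 values were 0.05 ± 0.03 in hippocampus (adjusted p = 0.496) and 0.014 ± 0.038 in prefrontal cortex (adjusted p = 0.936), and omission of the set gave 0.05 ± 0.04 in hippocampus (adjusted p = 0.684) and 0.0042 ± 0.0335 in prefrontal cortex (adjusted p = 0.974). Over 12 other settings the adjusted p of Tjp1 ran from 4.65e-08 to 0.684 in hippocampus and from 9.32e-08 to 0.974 in prefrontal cortex.

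Occludin and VE-cadherin gave no call. Ocln differed by -0.010 ± 0.058 in hippocampus (log2 fold change ± SE, PLX over control, limma adjusted p = 0.906) and by -0.010 ± 0.040 in prefrontal cortex (adjusted p = 0.868). With the term these Ocln values were -0.0023 ± 0.0659 in hippocampus and -0.029 ± 0.047 in prefrontal cortex, and omission of the set gave 0.03 ± 0.07 in hippocampus and -0.08 ± 0.06 in prefrontal cortex. Cdh5 differed by -0.05 ± 0.07 in hippocampus and -0.04 ± 0.06 in prefrontal cortex. With the term Cdh5 differed by -0.15 ± 0.07 in each tissue (adjusted p = 0.355 in hippocampus and 0.382 in prefrontal cortex), and omission of the set gave -0.19 ± 0.08 in hippocampus (adjusted p = 0.383) and -0.23 ± 0.08 in prefrontal cortex (adjusted p = 0.153).

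Among surface and receptor genes, Pecam1 ran from 311 to 466 (median 380) in hippocampal PLX libraries and from 314 to 573 (median 440) in control libraries. In prefrontal cortex Pecam1 ran from 318 to 494 (median 372) in PLX libraries and from 326 to 537 (median 434) in control libraries. The PLX libraries covered the lower part of the control range in both tissues. The log2 fold change of Pecam1 was -0.18 ± 0.05 in hippocampus (limma, adjusted p = 0.00653) and -0.20 ± 0.05 in prefrontal cortex (adjusted p = 0.00268). With the term Pecam1 differed by -0.17 ± 0.06 in hippocampus (adjusted p = 0.161) and by -0.15 ± 0.06 in prefrontal cortex (adjusted p = 0.303). Outside the set that stands apart it was as large as over all libraries, at -0.23 ± 0.06 in hippocampus (adjusted p = 0.174) and -0.23 ± 0.07 in prefrontal cortex (adjusted p = 0.107), and did not pass. Over 12 other settings its adjusted p ran from 0.00318 to 0.174 in hippocampus and from 0.000118 to 0.303 in prefrontal cortex. Flt1 differed by 0.03 ± 0.06 in hippocampus and 0.04 ± 0.06 in prefrontal cortex, and Ly6c1 by -0.06 ± 0.06 in hippocampus and -0.08 ± 0.08 in prefrontal cortex. Neither was called, and the estimates of both took the opposite sign with the term, at -0.08 ± 0.06 for Flt1 and 0.08 ± 0.06 for Ly6c1 in hippocampus. Omission of the set gave -0.11 ± 0.06 for Flt1 and 0.08 ± 0.07 for Ly6c1 there, and -0.15 ± 0.07 for Flt1 and 0.07 ± 0.08 for Ly6c1 in prefrontal cortex.

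Among transporter genes, Mfsd2a ran from 355 to 1181 (median 689) in hippocampal PLX libraries and from 377 to 961 (median 584) in control libraries. In prefrontal cortex Mfsd2a ran from 304 to 908 (median 588) in PLX libraries and from 322 to 816 (median 500.1) in control libraries. The PLX medians lay above those of the controls in both tissues, and the ranges overlapped. The log2 fold change of Mfsd2a was 0.28 ± 0.09 in hippocampus (limma, adjusted p = 0.0134) and 0.21 ± 0.10 in prefrontal cortex (adjusted p = 0.0835). With the term the estimates were larger and did not pass over all genes, at 0.37 ± 0.10 in hippocampus (unadjusted p = 0.000581, adjusted p = 0.0668) and 0.36 ± 0.11 in prefrontal cortex (unadjusted p = 0.00166, adjusted p = 0.153). Omission of the set gave 0.38 ± 0.11 in hippocampus (adjusted p = 0.214) and 0.39 ± 0.12 in prefrontal cortex (adjusted p = 0.140). Over 12 other settings its adjusted p ran from 0.00906 to 0.214 in hippocampus and from 0.0355 to 0.449 in prefrontal cortex.

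Slco1a4 in prefrontal cortex ran from 911 to 1511 (median 1187) in PLX libraries and from 911 to 1907 (median 1311) in control libraries. Outside the set that stands apart Slco1a4 averaged 1180 ± 162 in 22 PLX libraries and 1463 ± 207 in 10 control libraries (SD). Its log2 fold change in prefrontal cortex was -0.14 ± 0.07 over all libraries (limma, adjusted p = 0.116), -0.29 ± 0.07 with the term (adjusted p = 0.0641) and, leaving out the set, -0.38 ± 0.08 (adjusted p = 0.0220). Over 12 other settings its adjusted p ran from 0.022 to 0.396. In hippocampus Slco1a4 differed by -0.08 ± 0.06 (adjusted p = 0.271), by -0.15 ± 0.06 with the term (adjusted p = 0.238) and by -0.14 ± 0.07 without the set (adjusted p = 0.460). Abcb1a was not called, with 0.03 ± 0.06 in hippocampus and 0.04 ± 0.05 in prefrontal cortex, and with the term -0.10 ± 0.05 in hippocampus and -0.11 ± 0.05 in prefrontal cortex. Omission of the set gave -0.13 ± 0.06 for Abcb1a in hippocampus (adjusted p = 0.384) and -0.17 ± 0.05 in prefrontal cortex (adjusted p = 0.138).

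Without the term 4 of 10 members were called in hippocampus, where 40.0% of all 19938 tested genes were called, and 3 of 10 in prefrontal cortex, where 37.8% of 19841 were. The members' shares are near that background. With the term limma called 0 of 10 in each tissue, against 0.376% of all genes in hippocampus and 0.242% in prefrontal cortex. Without the set the counts were 0 of 10 in hippocampus (0.0457% of all genes) and 1 of 10 in prefrontal cortex (0.302%). A difference of the PLX effect between the tissues was called for 0 members, and for 0.0% of 20637 genes in limma, with 0 members and 555 genes at an unadjusted p under 0.05 and 0 genes called by edgeR. That limma fit did not pair the libraries of a label across the tissues, and with the label as a block 0 members were called too.

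**Figure D2:**
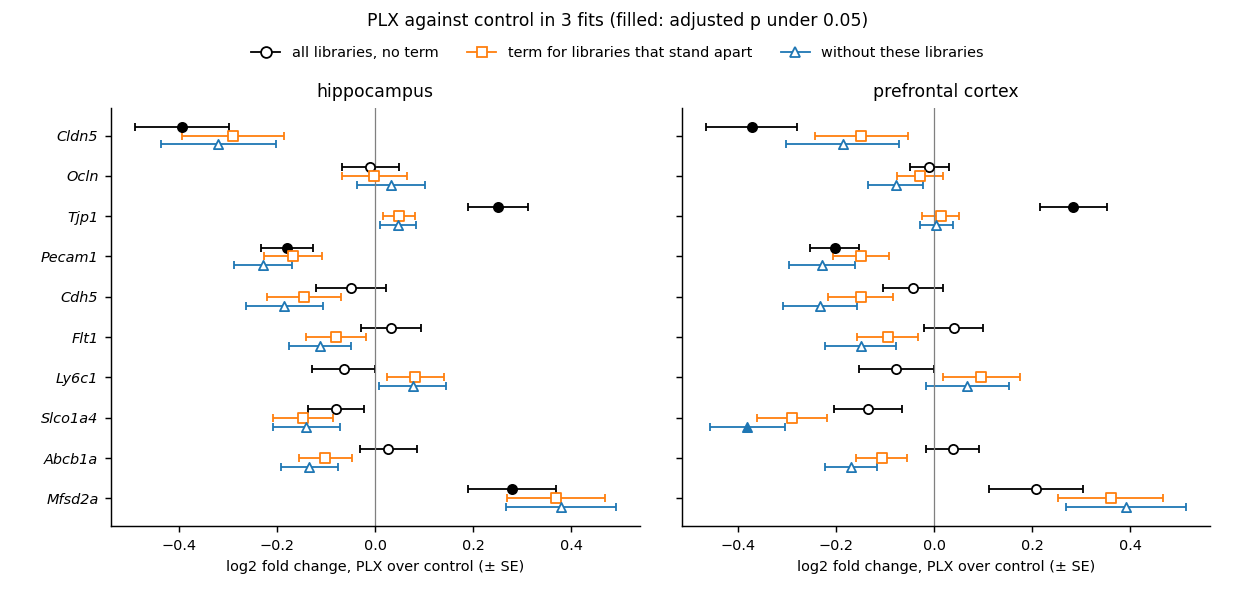
Log2 fold change of PLX over control (x axis, ± SE) for each member in hippocampus and prefrontal cortex, in 3 limma fits: all libraries with no term (black circles), with a term for the set that stands apart (orange squares), and without these libraries (blue triangles). Filled symbols have an adjusted p under 0.05. Tjp1 lies near 0 in both fits that deal with the set, Mfsd2a lies farther from 0 there, and Slco1a4 in prefrontal cortex is the single filled symbol that is not black.

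The hippocampal Cldn5 values are given by group. In MIA males Cldn5 was 224 to 452 (median 268) under PLX, against 360, 407, 444, 557 and 628 in the 5 control libraries (log2 fold change -0.70 ± 0.20, limma adjusted p = 0.0994). In MIA females it was 240 to 470 (median 333) under PLX and 336 to 751 (median 379) in controls (-0.34 ± 0.18, adjusted p = 0.685). In saline females it was 258 to 394 (median 331) under PLX and 351 to 599 (median 477) in controls (-0.52 ± 0.19, adjusted p = 0.165). Saline males had 272 to 532 (median 333) under PLX and 283 to 499 (median 347) in controls (-0.016 ± 0.191, adjusted p = 0.971). The groups overlapped in each case, and the 4 PLX group means, 297 in MIA males to 359 in saline males, lay within 1 SD of each neighbour in that order. The PLX effect on Cldn5 was not shown to differ between groups, with an interaction of -0.25 ± 0.19 with MIA (limma adjusted p = 1.00) and of -0.08 ± 0.19 with sex (adjusted p = 0.943).

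Mfsd2a in hippocampus was highest in saline females under PLX, at 613 to 1181 (median 871), against 546 to 673 (median 602) in their controls (log2 fold change 0.50 ± 0.18, limma adjusted p = 0.165). In MIA females Mfsd2a was 496 to 914 (median 805) under PLX and 403 to 794 (median 482) in controls (0.36 ± 0.17, adjusted p = 0.638). Male differences were 0.11 ± 0.19 after MIA and 0.14 ± 0.18 after saline. A difference between females and males in the PLX effect was called for 0 members in either tissue by limma, with 0 members at an unadjusted p under 0.05, 0.0% of all genes called and 0 genes called by edgeR. In prefrontal cortex the group means of Mfsd2a ran from 446 ± 66.5 in MIA control males (SD, n = 5) to 696 ± 147 in saline PLX females (SD, n = 6).

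In the 8 comparisons of PLX with control within a sex and prenatal treatment limma, edgeR and DESeq2 called 0 members. At an unadjusted p under 0.05 limma had 1 to 3 members in each. Of all genes limma called 0.0301% in hippocampal saline females, 0.0251% in saline males and 0.00502% in MIA females and in MIA males. In prefrontal cortex it called 0.0252% in saline females and in MIA females, 0.338% in saline males and 0.0202% in MIA males. In none of the 8 did a member's PLX and control libraries lie wholly apart. Of all genes 0.226% did so in hippocampal MIA females, 2.28% in MIA males, 0.677% in saline females and 0.406% in saline males. In prefrontal cortex the shares were 0.176% in MIA females, 1.45% in MIA males, 0.721% in saline females and 1.47% in saline males. The members with the smallest p in hippocampus were Cldn5 in MIA males, Mfsd2a in MIA females, Flt1 in saline males (0.33 ± 0.12, limma adjusted p = 0.192) and Pecam1 in saline females (-0.30 ± 0.10, adjusted p = 0.164). In prefrontal cortex they were Tjp1 in MIA males (0.38 ± 0.14, adjusted p = 0.142) and saline males (0.39 ± 0.14, adjusted p = 0.0874), Pecam1 in MIA females (-0.29 ± 0.10, adjusted p = 0.416) and Cldn5 in saline females (-0.45 ± 0.19, adjusted p = 0.273). In each of the 8 the set that stands apart held more control than PLX libraries. In MIA males of each tissue it held 3 of 5 control and 0 of 6 PLX libraries. In saline males it held 4 of 6 and 1 of 6 in hippocampus, and 5 of 6 and 1 of 6 in prefrontal cortex. The 8 comparisons carry no term for the set. With array weights 9 member calls were made in these comparisons in hippocampus and 7 in prefrontal cortex. The share of all genes called with these weights is not given beside them, so these counts are not read as particular to the members.

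Other genes of the barrier and of brain endothelium were called in both directions without the term and hardly at all with it. Of 16 further tight junction genes in hippocampus 1 rose and 2 fell under PLX, with a median log2 fold change of -0.034 beside -0.0017 over all genes. They were the polarity gene Pard3 (0.17 ± 0.05, limma adjusted p = 0.00451), the junctional adhesion gene F11r (-0.26 ± 0.09, adjusted p = 0.0249) and the endothelial adhesion gene Esam (-0.13 ± 0.06, adjusted p = 0.049). Of 23 further transporter genes 5 rose and 7 fell in hippocampus (median -0.048), led by the fatty acid binding gene Fabp5 (-0.26 ± 0.05, adjusted p = 0.000807). The basigin gene Bsg, a chaperone of monocarboxylate carriers, also fell (-0.23 ± 0.06, adjusted p = 0.00231).

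Of 33 genes of endothelial surface and identity 2 rose and 9 fell in hippocampus (median -0.076), and 3 rose and 10 fell in prefrontal cortex (median -0.037). Itm2a fell by 0.26 ± 0.05 in hippocampus and by 0.25 ± 0.05 in prefrontal cortex on the log2 scale. Egfl7, a matrix protein secreted by endothelium, fell by 0.25 ± 0.06 and 0.28 ± 0.06 in these tissues, while the basement membrane collagen gene Col4a2 rose (0.30 ± 0.08 and 0.29 ± 0.07). Of 17 arterial and venous genes 0 rose and 5 fell in each tissue (limma; median -0.108 in hippocampus and -0.126 in prefrontal cortex), among them the Notch target Hey1 (-0.11 ± 0.04 and -0.15 ± 0.04). In the VEGF and angiopoietin list of 16 genes 4 rose and 3 fell in hippocampus and 3 rose and 4 fell in prefrontal cortex, with the coreceptor genes Nrp1 (0.13 ± 0.04 and 0.18 ± 0.06) and Nrp2 (0.19 ± 0.05 and 0.16 ± 0.05) higher under PLX in both. Of 11 genes of vesicular transport 5 rose and 3 fell in hippocampus and 3 rose and 0 fell in prefrontal cortex, led by Ahnak (0.48 ± 0.12 and 0.52 ± 0.10). Of 21 genes of the Wnt and Norrin programme, which sets up the barrier, 1 rose and 2 fell in each tissue. Of 22 endothelial transcription factor genes 1 rose and 3 fell in hippocampus and 2 rose and 2 fell in prefrontal cortex. Of 16 genes of endothelial activation 0 were called in hippocampus by limma, and 3 rose and 1 fell in prefrontal cortex. Beside the 40.0% of all genes called in hippocampus, the called share was higher in the transporter, VEGF and vesicular transport lists and lower in the other 6. Beside 37.8% in prefrontal cortex it was higher in the transporter (11 of 22), surface (13 of 33) and VEGF lists and lower in the other 6.

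With the term 0 genes of these lists were called by limma in hippocampus. In prefrontal cortex the organic anion carrier gene Slco2b1 alone was called with it, lower under PLX (-0.20 ± 0.04, limma adjusted p = 0.0277). Without the set that stands apart, 3 of 22 transporter genes were called in prefrontal cortex, each lower under PLX. They were Slco2b1 (-0.26 ± 0.04, adjusted p = 0.00244), the transferrin receptor gene Tfrc (-0.29 ± 0.06, adjusted p = 0.0221) and the taurine carrier gene Slc6a6 (-0.18 ± 0.04, adjusted p = 0.0453). Itm2a was called there too (-0.23 ± 0.05, adjusted p = 0.0328).

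Cells that neighbour the vessel were read from the same fits. The counts below stand beside 40.0% of all genes called in hippocampus and 37.8% in prefrontal cortex without the term. With the term these shares were 0.376% and 0.242%. Of 10 pericyte genes 2 rose and 3 fell in each tissue without the term, and 0 were called with it. The summed level of the pericyte genes ran from 5134 to 6479 in PLX libraries and from 5044 to 7367 in control libraries of hippocampus, and none of the 10 was at 0 in any library. The sum of 8 astrocyte genes ran from 137648 to 192813 in PLX libraries and from 120849 to 192351 in control libraries of hippocampus, with medians of 177813 in PLX and 155504 in control libraries. In prefrontal cortex it ran from 111362 to 170540 (median 155349) in PLX libraries and from 106765 to 170991 (median 136673) in control libraries. The medians of this sum, most of it Slc1a2, were higher under PLX in both tissues. Of the 8 genes 1 rose and 1 fell in hippocampus and 3 rose and 1 fell in prefrontal cortex without the term, and 0 were called by limma with it. The part of the astrocyte markers in the values of the barrier genes was not tested. Among 8 microglial genes, which mark the cells that the inhibitor acts on, 7 fell in each tissue without the term. With it 3 fell in hippocampus and 5 in prefrontal cortex, among them the purinergic receptor gene P2ry12 (-0.24 ± 0.05 in hippocampus and -0.37 ± 0.06 in prefrontal cortex). The microglial sum ran from 7256 to 8854 in PLX libraries and from 7696 to 11580 in control libraries of hippocampus, and from 7422 to 8894 in PLX libraries and from 8423 to 11026 in control libraries of prefrontal cortex, with no gene of the list at 0. Microglial markers thus moved with PLX in the same libraries, and their part in the values of the barrier genes was not tested.

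Whether MIA changed barrier genes was asked over 24 MIA and 24 saline libraries of a tissue. No member was called by limma, and 0.0% of all genes were called in either tissue. 949 genes in hippocampus and 1183 in prefrontal cortex had an unadjusted p under 0.05, edgeR called 0 genes in either tissue, and DESeq2 called 11 in hippocampus and 5 in prefrontal cortex. Of the members, Ly6c1 and Mfsd2a had an unadjusted p under 0.05 in hippocampus, and Cldn5 and Pecam1 in prefrontal cortex. Litters are not given, and MIA acted on the mother, so these p-values take each library as an independent replicate.

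Ly6c1 in hippocampus ran from 305 to 667 (median 444) in MIA libraries and from 377 to 653 (median 474) in saline libraries (log2 fold change, MIA over saline, -0.16 ± 0.06, limma unadjusted p = 0.0167, adjusted p = 0.916). Mfsd2a ran from 355 to 914 (median 562) in MIA libraries and from 377 to 1181 (median 643) in saline libraries there (-0.22 ± 0.09, unadjusted p = 0.0178, adjusted p = 0.922). In prefrontal cortex the Mfsd2a difference was -0.19 ± 0.10 (adjusted p = 0.839). Cldn5 in prefrontal cortex ran from 255 to 731 (median 425) in MIA libraries and from 223 to 568 (median 347) in saline libraries (0.20 ± 0.09, limma unadjusted p = 0.0383, adjusted p = 0.822). Pecam1 there ran from 318 to 537 (median 432) in MIA libraries and from 318 to 522 (median 386) in saline libraries (0.10 ± 0.05, unadjusted p = 0.0464, adjusted p = 0.832). The ranges overlapped in each case.

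The other members in hippocampus, Abcb1a, Cdh5, Cldn5, Flt1, Ocln, Pecam1, Slco1a4 and Tjp1, differed by -0.08 ± 0.06 (Abcb1a) to 0.09 ± 0.06 (Ocln) between MIA and saline on the log2 scale. In prefrontal cortex Abcb1a, Cdh5, Flt1, Ly6c1, Ocln, Slco1a4 and Tjp1 differed by -0.11 ± 0.08 (Ly6c1) to 0.10 ± 0.06 (Flt1). The interaction of MIA and PLX was called for 0 members by limma, with 0 at an unadjusted p under 0.05 and 0.0% of all genes called. Its smallest p was that of Flt1 in both tissues, at -0.23 ± 0.12 in hippocampus (unadjusted p = 0.0700) and -0.18 ± 0.12 in prefrontal cortex (limma adjusted p = 0.887). In the 8 comparisons of MIA with saline within a sex and inhibitor group limma, edgeR and DESeq2 called 0 members, with 0 to 2 members at an unadjusted p under 0.05 in limma. Limma called 0.00502% of all genes in hippocampal control females and 0.0% in the other 7. The members with the smallest p in hippocampus were Ocln in control females (log2 fold change, MIA over saline, 0.24 ± 0.11, limma adjusted p = 0.767) and PLX females (0.18 ± 0.12), Cldn5 in control males (0.42 ± 0.20) and Ly6c1 in PLX males (-0.23 ± 0.13). In prefrontal cortex they were Pecam1 in control females (0.22 ± 0.10, limma adjusted p = 0.907), Flt1 in control males (0.20 ± 0.13), Cldn5 in PLX females (0.42 ± 0.19, adjusted p = 0.757) and Ocln in PLX males (-0.13 ± 0.08).

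Sex gave no call among the members either, against 0.246% of genes in hippocampus and 0.141% in prefrontal cortex, with 2 members at an unadjusted p under 0.05 in each tissue. Abcb1a ran from 634 to 912 (median 785) in 25 female and from 463 to 946 (median 686) in 23 male hippocampal libraries (log2 fold change, female over male, 0.18 ± 0.06, limma adjusted p = 0.306). In prefrontal cortex its difference was 0.12 ± 0.05 (adjusted p = 0.770). Mfsd2a differed by 0.22 ± 0.09 in hippocampus (adjusted p = 0.514) and by 0.20 ± 0.10 in prefrontal cortex (adjusted p = 0.796). With array weights Abcb1a was called in both tissues, higher in females (0.24 ± 0.05 in hippocampus, limma adjusted p = 0.00533, and 0.20 ± 0.04 in prefrontal cortex, adjusted p = 0.0062). Slco1a4 (0.19 ± 0.06, adjusted p = 0.0304) and Tjp1 (0.14 ± 0.05, adjusted p = 0.0456) were called with them in prefrontal cortex. The share of all genes called with these weights is not given. Over the other settings the hippocampal Abcb1a estimate ran from 0.019 to 0.24. All 10 members in hippocampus had a positive estimate, from 0.04 to 0.22, and 8 of 10 had one in prefrontal cortex. Without the libraries that stand apart Cdh5, Flt1, Pecam1 and Tjp1 in hippocampus took a negative one, and with the term Tjp1 alone did (-0.020 ± 0.029). In prefrontal cortex their omission turned Abcb1a (-0.062, limma adjusted p = 0.858), Flt1, Ocln, Pecam1, Slco1a4 and Tjp1 negative, and the term turned Tjp1 negative (-0.032).

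Between the tissues the libraries of Ocln lay wholly apart. Ocln was 282 to 521 (median 386) in hippocampus and 166 to 265 (median 208) in prefrontal cortex, in reads put on one scale over all 96 libraries. The tissues did not overlap, as was the case for 2.25% of all genes in this direction, and Ocln was higher in hippocampus in 48 of 48 labels shared by both tissues. The log2 fold change, hippocampus over prefrontal cortex, was 0.92 ± 0.04 (limma, adjusted p = 6.14e-41), and the ratio of the means was 1.90. Over the 8 groups of hippocampus the mean of Ocln ran from 372 in saline control females to 440 in MIA control females (normalised read count), and neighbours in that order differed by less than 1 SD.

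Choroid plexus markers varied strongly between hippocampal libraries. The choroid plexus is the epithelium that makes cerebrospinal fluid, and it too carries tight junctions. The summed level of 10 of its markers, on the same scale, ran from 3976 to 143233 in hippocampal libraries and from 4756 to 6801 in prefrontal libraries. In the 12 hippocampal libraries with the lowest sums, 3976 to 5824, Ocln was 282 to 500 with a median of 363, above every prefrontal library. In the 12 with the highest sums it was 385 to 521 with a median of 443. Most of the prefrontal sum was Enpp2, with a median normalised read count of 5478. Kl was at least 519 in every hippocampal library and at most 159 in prefrontal cortex. A similar sum therefore does not mean similar levels of each marker, and the part of these markers in the level of Ocln was not tested.

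Mfsd2a was higher in hippocampus as well, at 359 to 1187 (median 631) against 308 to 915 (median 554) in prefrontal cortex (log2 fold change 0.26 ± 0.07, limma adjusted p = 0.000603), with 46 of 48 labels higher. Abcb1a was lower in hippocampus, at 466 to 949 (median 748) against 630 to 1194 (median 859) in prefrontal cortex (-0.21 ± 0.04, adjusted p = 4.91e-06), and higher in 2 of 48 labels. Cdh5 was lower at 179 to 366 (median 265) in hippocampus, against 236 to 435 (median 302) in prefrontal cortex (-0.21 ± 0.05, adjusted p = 6.12e-05), and higher in 6 of 48 labels. For Mfsd2a, Abcb1a and Cdh5 the tissues overlapped, while within a label the direction was nearly always the same. Flt1 differed by -0.10 ± 0.04 (adjusted p = 0.0424) and was higher in hippocampus in 12 of 48 labels. That call was lost when any one of 35 of the 96 libraries was left out, with adjusted p up to 0.0765.

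Cldn5, Tjp1, Pecam1, Ly6c1 and Slco1a4 were not called between the tissues, with log2 fold changes of -0.05 ± 0.07 for Cldn5 to 0.03 ± 0.05 for Ly6c1. In all, 5 of 10 members were called, 2 higher and 3 lower in hippocampus, against 65.8% of 20637 genes, 34.8% higher and 30.9% lower, a share below that of all genes. With the term for the set that stands apart 71.1% of genes were called, and without those libraries 61.8%.

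**Figure D3:**
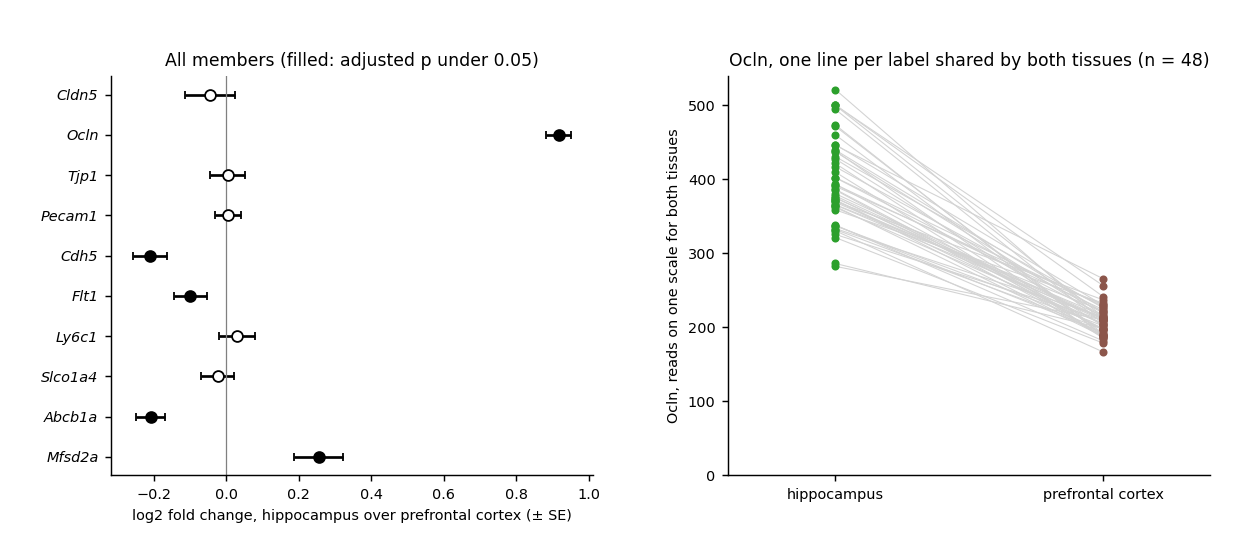
Left, log2 fold change of hippocampus over prefrontal cortex (x axis, ± SE) for each member, filled where the adjusted p is under 0.05. Right, Ocln in reads put on one scale for both tissues (y axis from 0), with a line for each of 48 labels shared by both tissues. Every line is higher at its hippocampal end, and Ocln stands at 0.92 on the left while the other members lie between -0.21 and 0.26.

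Among the wider lists, 8 of 16 further tight junction genes were higher and 5 lower in hippocampus, with a median log2 fold change of 0.083 beside 0.019 over all genes. Tjp3, which encodes ZO-3, was higher (2.80 ± 0.13, limma adjusted p = 3.8e-36), and the claudin gene Cldn12 was lower (-0.66 ± 0.02, adjusted p = 1.67e-46). Of 23 transporter genes 8 were higher and 5 lower (median 0.0073). Abcb1b, the near copy of Abcb1a, was higher in hippocampus (0.60 ± 0.05), opposite to Abcb1a, and the sources used here do not say how reads that fit both genes were divided. Spns2, the exporter of sphingosine-1-phosphate, was higher too (0.86 ± 0.03). Of 33 endothelial surface genes 9 were higher and 10 lower, with a median of 0.0079. Beside 65.8% of all genes called between the tissues, the called share was higher for the tight junction list and lower for the transporter and surface lists. The sialomucin gene Cd34 was lower (-0.59 ± 0.03), while the receptor genes Calcrl (0.63 ± 0.05) and Ramp2 (0.83 ± 0.05), whose products form the adrenomedullin receptor, were higher. In the VEGF list the coreceptor gene Nrp1, which neurons also express, was higher (1.97 ± 0.04).

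The members did not move as one block between libraries. Group means and a term for the set that stands apart were first removed in a fit over the 48 libraries of a tissue. Correlations were then taken in 4 sets of libraries: 14 that stand apart and 34 others in hippocampus, and 16 that stand apart and 32 others in prefrontal cortex. Pecam1, Flt1 and Cdh5 went together, with Pearson's r of 0.59 to 0.92 for Pecam1 with Cdh5, 0.68 to 0.86 for Flt1 with Cdh5 and 0.64 to 0.85 for Pecam1 with Flt1. Cldn5 went with Flt1 at 0.55 to 0.72. Spearman's rho for these 4 pairs ran from 0.53 to 0.88, and without the 2 libraries farthest out on the first gene r ran from 0.58 to 0.91.

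Mfsd2a went with Ly6c1 instead, at r of 0.51 to 0.72 and rho of 0.53 to 0.74 in the 4 sets, and 0.45 to 0.68 without the 2 farthest libraries. Its r with Slco1a4 ran from -0.73 to -0.05, and from -0.81 to -0.09 without the 2 farthest. With Cdh5 it ran from -0.54 to -0.07, and without the 2 farthest libraries it was -0.63 and -0.55 in the other libraries of hippocampus and prefrontal cortex, but 0.17 and 0.079 in those that stand apart. Of 45 pairs, 11 were above 0.3 in all 4 sets and 2 were below 0 in all 4. These values are a description with no p, since the members of a pair share a library, its depth and its cell makeup.

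**Figure D4:**
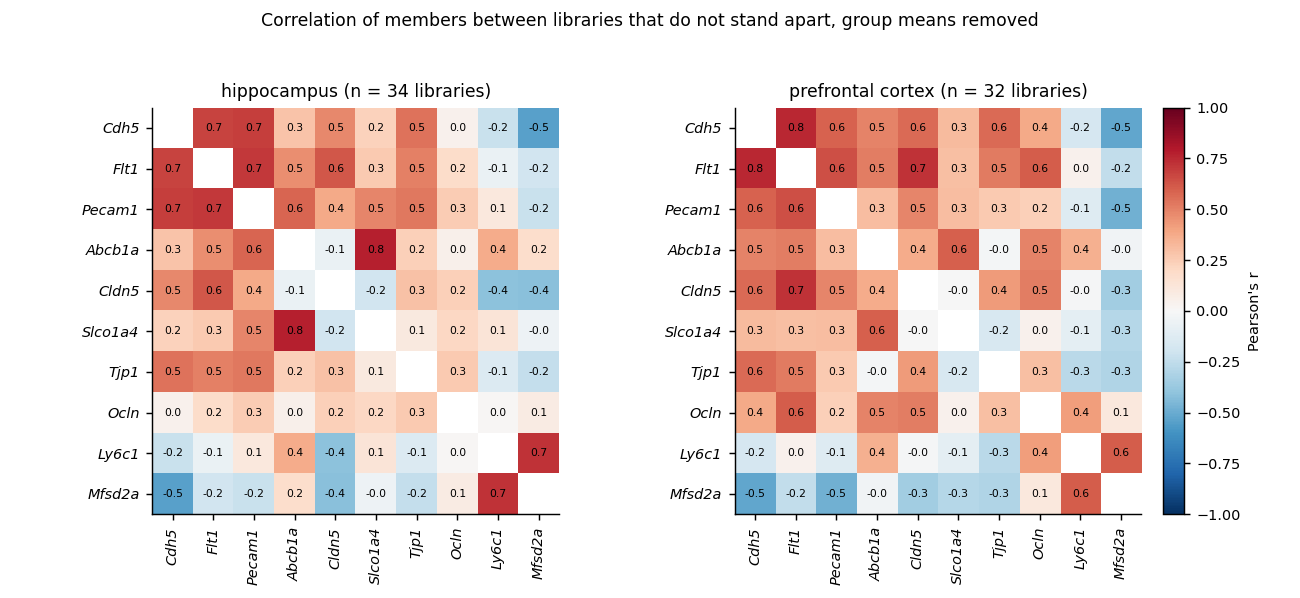
Pearson's r between members over the libraries that do not stand apart, 34 in hippocampus (left) and 32 in prefrontal cortex (right). Group means and a term for the set that stands apart were removed over all 48 libraries of a tissue. Red is positive and blue negative, on a scale from -1 to 1. Cdh5, Flt1 and Pecam1 form a red corner in both tissues, and Mfsd2a with Ly6c1 form another, mostly pale or blue towards the first.

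Genes outside the 10 were ranked by their correlation with the members' mean z score, with group means removed, over 48 libraries in each tissue and 19356 genes. The highest mean r of the tissues belonged to Cxcl12, a chemokine (0.78), Podxl, a sialomucin of vessel surfaces (0.76), She (0.71), Rgs5, which marks pericytes (0.70), Slfn5 (0.69), Cyyr1 (0.67), Flt4, a VEGF receptor gene (0.66), Adgrl4, an adhesion receptor of endothelium (0.64), Cald1, which encodes caldesmon (0.64), and Entpd1, the ectonucleotidase CD39 (0.64). Of the members themselves, Pecam1 went with the mean of the other 9 at r = 0.72 in hippocampus and 0.39 in prefrontal cortex. Flt1 did so at 0.75 and 0.81, and Mfsd2a at -0.24 and -0.20. With a term for the set that stands apart removed as well, Mfsd2a stood at -0.14 and -0.09. In that ranking Ptprb, Adgrf5 and Itga1 took the places of Flt4, Cald1 and Entpd1 among the first 10.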

How the data were processed

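The authors deposited a table of 22709 genes in 96 libraries, whose values are a signal: read counts divided by a factor per library, scaled within each tissue. Per the submitters' processing notes reads were trimmed with Trimmomatic and aligned with STAR 2.6.1d to GRCm39 (mm39), while the sources used here do not name the counting tool. Per the labels' protocols a stranded messenger RNA kit was used on total RNA. Whole reads were recovered by multiplying by that factor, with 100% of values whole within 0.01; in 75 columns the factor was checked and in 21 it lay near 1. On these reads edgeR called 7891 genes for PLX in hippocampus and 7425 in prefrontal cortex, and limma called 7972 and 7499.

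Genes at 10 or more in at least 5 libraries were tested with limma 3.58.1 (R 4.3.3) on log2(value + 1), with a mean-variance trend, 8 groups per tissue and Benjamini-Hochberg adjustment, since the deposited values are not raw counts. Tissues were compared after putting recovered reads on one scale over 96 libraries by median ratios, in 16 groups. The pipeline was tested on simulated hippocampal counts with known folds under PLX. These held no set of libraries that stands apart, so that test does not bear on how the set was handled. Alternatives were pseudocounts of 0.5 and 10, no filter, TMM scaling, array weights, a replicate block, edgeR 4.0.16 and DESeq2 1.42.0 on recovered reads, a term for and omission of the libraries that stand apart, and each library left out in turn. A term for and omission of the 14 labels that stand apart in both tissues, and the deposited scaling in the tissue fit, were added after seeing the data. The set that stands apart lies above the widest gap in the share of reads on ribosomal protein and oxidative phosphorylation genes.

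The members and gene lists were chosen with earlier results of these data known. All 10 members are named in averaged comparisons, the member with the smallest p where a comparison of 2 groups has no call, at most 4 called genes with the smallest p from a list, and the 10 genes most like the members. Each library is a sample of its own in the labels, which name no litter or batch, so p-values measure the spread between these libraries.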

Additional observations from a re-analysis of the deposited data

Results flagged for a closer look

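In 8 of 160 groups of 5 to 7 libraries, 1 library lay far from the others by Dixon's ratio of the gap to the range (normalised read counts). Chance flags about 1 in 20 independent checks, which is the share seen here. The 160 checks share libraries and are not independent, so no conclusion is drawn from that share. Cldn5 was highest in replicate 2 of the hippocampal MIA control females, at 751 against 336 to 432 in the other 6, and that library stands apart. Pecam1 was highest in replicate 5 of the prefrontal MIA control males, at 471 against 423 to 437 in the other 4. Abcb1a was lowest in replicate 1 of the hippocampal saline PLX females, at 634 against 804 to 887 in the other 5. Tjp1 was lowest in replicate 6 of the hippocampal MIA PLX females, at 2386 against 3257 to 3768 in the other 5, and that library stands apart. Tjp1 was lowest in replicate 6 of the prefrontal MIA PLX females, at 2253 against 3176 to 3602 in the other 5, and that library stands apart. Tjp1 was highest in replicate 2 of the prefrontal MIA PLX males, at 3976 against 3243 to 3459 in the other 5. Tjp1 was lowest in replicate 5 of the prefrontal saline PLX males, at 2474 against 3368 to 3636 in the other 5, and that library stands apart. Cdh5 was highest in replicate 2 of the hippocampal saline PLX females, at 337 against 237 to 264 in the other 5. In 4 of these the library belongs to the set that stands apart.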

How the results depend on the processing

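The members' calls under PLX depended on how the libraries that stand apart were handled. In hippocampus 4 were called, and 0 with the term for libraries, without those libraries, with a term for the 14 labels that stand apart in both tissues, and without these labels. These labels are those of the hippocampal libraries that stand apart, so there the fits by label repeat the fits by library and add no further check. In prefrontal cortex 3 were called, 0 with either term, 1 without the libraries, 0 without the labels and 5 with array weights. The terms and omissions by label were chosen after seeing the data. With array weights 1 member was called between females and males in hippocampus and 3 in prefrontal cortex, and between PLX and control within a sex and prenatal treatment 9 calls were made in hippocampus and 7 in prefrontal cortex, against 0 in each of these without weights. No share of all genes is given beside the counts with array weights, so they are not read as results about the members. Other pseudocounts, no filter on low values, TMM scaling, edgeR and DESeq2 left the member counts as they were or within 1.5 times. DESeq2 was not run for the tissue fit. Without 1 library at a time, 48 per tissue or 96 over both, the counts were 4 to 4 for PLX in hippocampus and 3 to 4 in prefrontal cortex, 0 to 2 within a sex and prenatal treatment in hippocampus and 0 to 1 in prefrontal cortex, 4 to 5 between the tissues, and 0 to 0 for the others.

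The same replicate number within a tissue did not pair libraries (median correlation of their deviations -0.0041 in hippocampus and -0.0028 in prefrontal cortex). Libraries of 1 label across the tissues correlated at a median of 0.211, with 38 of 48 above 0.1 and 22 of 48 highest with their own label, a hint from the data. With the replicate number or label as a block, 4 members were called for PLX in hippocampus, 3 in prefrontal cortex and 5 between the tissues, and no member count changed. In the tissue difference of the PLX effect the block gave 10 genes of 20637, none of them a member.

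Of the 145 cases in which an estimate changed sign, 0 passed the threshold with the alternative. Within hippocampus the fits by label repeat the fits by library, so such cases there are counted in both. Without the libraries that stand apart the log2 fold changes of opposite sign were those of PLX over control in hippocampus for Abcb1a -0.13, Flt1 -0.11, Ly6c1 0.076 and Ocln 0.032, female over male in hippocampus for Cdh5 -0.052, Flt1 -0.090, Pecam1 -0.013 and Tjp1 -0.060, PLX over control in prefrontal cortex for Abcb1a -0.17, Flt1 -0.15 and Ly6c1 0.067, MIA over saline in prefrontal cortex for Ocln -0.016, female over male in prefrontal cortex for Abcb1a -0.062, Flt1 -0.091, Ocln -0.0024, Pecam1 -0.044, Slco1a4 -0.10 and Tjp1 -0.060 and of hippocampus over prefrontal cortex for Cldn5 0.031 and Tjp1 -0.036. Without the labels that stand apart in both tissues the log2 fold changes of opposite sign were those of PLX over control in hippocampus for Abcb1a -0.13, Flt1 -0.11, Ly6c1 0.076 and Ocln 0.032, female over male in hippocampus for Cdh5 -0.052, Flt1 -0.090, Pecam1 -0.013 and Tjp1 -0.060, PLX over control in prefrontal cortex for Abcb1a -0.12, Flt1 -0.12 and Ly6c1 0.082, MIA over saline in prefrontal cortex for Slco1a4 0.013 and of female over male in prefrontal cortex for Flt1 -0.079, Pecam1 -0.052 and Tjp1 -0.056. With the term for these libraries the log2 fold changes of opposite sign were those of PLX over control in hippocampus for Abcb1a -0.10, Flt1 -0.080 and Ly6c1 0.081, female over male in hippocampus for Tjp1 -0.020, PLX over control in prefrontal cortex for Abcb1a -0.11, Flt1 -0.095 and Ly6c1 0.10, female over male in prefrontal cortex for Ly6c1 0.021 and Tjp1 -0.032 and of hippocampus over prefrontal cortex for Tjp1 -0.016. With the term for labels the log2 fold changes of opposite sign were those of PLX over control in hippocampus for Abcb1a -0.10, Flt1 -0.080 and Ly6c1 0.081, female over male in hippocampus for Tjp1 -0.020, PLX over control in prefrontal cortex for Abcb1a -0.10, Flt1 -0.078 and Ly6c1 0.082 and of female over male in prefrontal cortex for Ly6c1 0.023 and Tjp1 -0.031. With array weights the log2 fold changes of opposite sign were those of MIA over saline in hippocampus for Cldn5 -0.028, female over male in hippocampus for Ly6c1 -1.85e-05, PLX over control in prefrontal cortex for Cdh5 0.023 and Ocln 0.0063, MIA over saline in prefrontal cortex for Slco1a4 0.0033 and of female over male in prefrontal cortex for Cdh5 0.049. With TMM scaling the log2 fold changes of opposite sign were those of hippocampus over prefrontal cortex for Pecam1 -0.0019 and Tjp1 -0.0027. In edgeR the log2 fold changes of opposite sign were those of hippocampus over prefrontal cortex for Tjp1 -1.61e-04. Leaving out 1 library at a time turned the sign of MIA over saline in hippocampus for Cdh5 (-0.055 to 8.22e-04), Cldn5 (-0.019 to 0.047), Pecam1 (-3.85e-04 to 0.036) and Slco1a4 (-0.038 to 0.0094), MIA over saline in prefrontal cortex for Abcb1a (-0.040 to 0.010), Ocln (-0.0065 to 0.018) and Slco1a4 (-0.050 to 0.012), PLX over control in hippocampus for Abcb1a (-6.51e-04 to 0.050) and Ocln (-0.035 to 0.013), PLX over control in prefrontal cortex for Ocln (-0.024 to 4.51e-04), female over male in prefrontal cortex for Cdh5 (-0.026 to 0.021) and Ly6c1 (-0.053 to 0.0063) and hippocampus over prefrontal cortex for Pecam1 (-0.0047 to 0.015) and Tjp1 (-0.0091 to 0.016).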
